A study of Homo sapiens with 8 samples.

Results

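The numbered ZNF genes of human chromosome 19 were described in 2 diffuse large B cell lymphoma lines, HT and SUDHL6, treated with iEZH or with the solvent DMSO. A gene was taken as a member when its symbol in a line's table of detectable genes was ZNF followed by digits alone and the table placed it on chromosome 19. This gave 213 genes of the 14410 in both tables together. There were 208 in the HT table and 195 in the SUDHL6 table, with 190 in both, 18 in HT alone and 5 in SUDHL6 alone.

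Most of these genes encode C2H2 zinc finger proteins, in which a row of short fingers, each folded around a zinc ion, reads DNA. Many carry a KRAB box near the start of the protein, which binds the corepressor TRIM28 and through it the H3K9 methyltransferase SETDB1, a pathway best known for silencing transposable elements. The family expanded by tandem duplication, and chromosome 19 holds its largest clusters in human. PRC2, which iEZH targets per the study's title, is a different silencing complex whose subunit EZH2 methylates H3K27.

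Each line had 2 libraries with DMSO and 2 with iEZH, all taken after 96 hours (day 4) from cells grown in RPMI medium with serum, 8 libraries in all. HT and SUDHL6 are established cell lines. The labels used here give no dose of iEZH and do not say whether the 2 libraries of a group came from separate cultures, so p-values measure only the spread between these libraries, which may be technical. Levels are FPKM, fragments scaled to transcript length and to the mapped reads of the library, from libraries of 59563321 to 94821806 total reads. Read counts per gene were not analysed here, and the 2 libraries per group limit the precision. The B cell markers MS4A1, CD79A, CD79B, PAX5 and CD22 were in both tables, reaching 866 FPKM in HT and 1605 FPKM in SUDHL6. T cell markers stayed at or below 1.21 FPKM in HT and were not listed in SUDHL6. Myeloid markers stayed below 1 FPKM, and no epithelial or stromal marker was listed in either table.

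Of the members, 197 in HT and 181 in SUDHL6 passed the filter for testing, which asked for at least 1 FPKM in at least 2 of a line's 4 libraries. The other 11 and 14 stayed out. Only 3 tested members, all in SUDHL6 (ZNF554, ZNF709 and ZNF575), passed through their iEZH libraries while below 1 FPKM in both DMSO libraries. In HT only ZNF878 passed through its DMSO libraries while below 1 FPKM in both iEZH libraries. Neighbouring ZNF genes arose by duplication and can share stretches of sequence, so values of single genes are uncertain where the authors' counting had to split reads between them. In HT 19 members, and in SUDHL6 16, also overlap another row of the table, and the strand used in counting is not given in the sources used here.

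In HT, chromosome 19 ZNF genes had lower levels with iEZH in 150 of 197 cases, where 47.4% of all genes were lower, and higher levels in 47. Under quantile normalization 176 were lower and 21 higher. Their median change was -0.14 on the log2(FPKM + 1) scale, against 0.018 over all 11164 genes tested. No member passed limma's test at an adjusted p of 0.05, where 615 genes, 5.51% of those tested, were called. With genes spanning under 300 bp kept in, 0 members and 69 of 11321 genes were called. At an unadjusted p under 0.05 there were 9 members, 2 higher and 7 lower, or 4.57% of members against 22.8% of all genes. Both iEZH libraries lay below both DMSO libraries for 69 members, 35.0% against 23.5% of all genes. Both lay above for 13 members, 6.60% against 28.8%. A lower level in these bulk samples can come from fewer expressing cells or from less RNA per cell, which cannot be told apart.

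In SUDHL6, members were divided evenly, with 92 higher and 89 lower, where 43.3% of all genes were lower, and a median change of 0.0044 against 0.040 over all 11006 genes tested. The sign of that median turned under median-ratio rescaling, to -0.020, and under quantile normalization, to -0.12, where 47 were higher and 134 lower. No member was called by limma here either, where 2 genes, 0.0182% of those tested, were called. The unadjusted p was under 0.05 for 18 members, 8 higher and 10 lower, or 9.94% against 19.7% of all genes. Both iEZH libraries lay below both DMSO libraries for 27 members, 14.9% against 20.7% of all genes, and above for 38, 21.0% against 28.9%. In the authors' deposited table, the FDR was under 0.05 for 0 HT members, against 0.636% of tested HT genes. In the authors' deposited table for SUDHL6 it was under 0.05 for 1 member, ZNF581, at 0.00595, against 0.382% of tested genes.

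The libraries numbered 2 gave higher levels of these genes than those numbered 1, whatever the treatment. In HT 136 members, 69.0% against 39.2% of all genes, were higher in number 2 in both groups. In SUDHL6 there were 122 such members, 67.4% against 36.6%. Of 173 members tested in both lines, 88 were higher in number 2 in all 4 groups, 50.9% against 23.8% of all genes. The median member level in HT was 5.03 and 5.54 FPKM in the DMSO libraries and 4.36 and 4.99 FPKM in the iEZH libraries. In SUDHL6 it was 4.38 and 4.95 FPKM with DMSO and 4.43 and 5.04 FPKM with iEZH. The step between numbers was close in size to the step between treatments in HT and larger than it in SUDHL6. The labels do not say what the number stands for. Within number 1 the median change of members was -0.17 in HT and 0.027 in SUDHL6, and within number 2 it was -0.089 and -0.017. The median change of HT members was -0.037 without iEZH library 1, -0.064 without DMSO library 2 and -0.24 without iEZH library 2. That of SUDHL6 ranged from -0.055, without DMSO library 1, to 0.077, without DMSO library 2. It was 0.075 without iEZH library 1 and -0.037 without iEZH library 2.

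**Figure D1:**
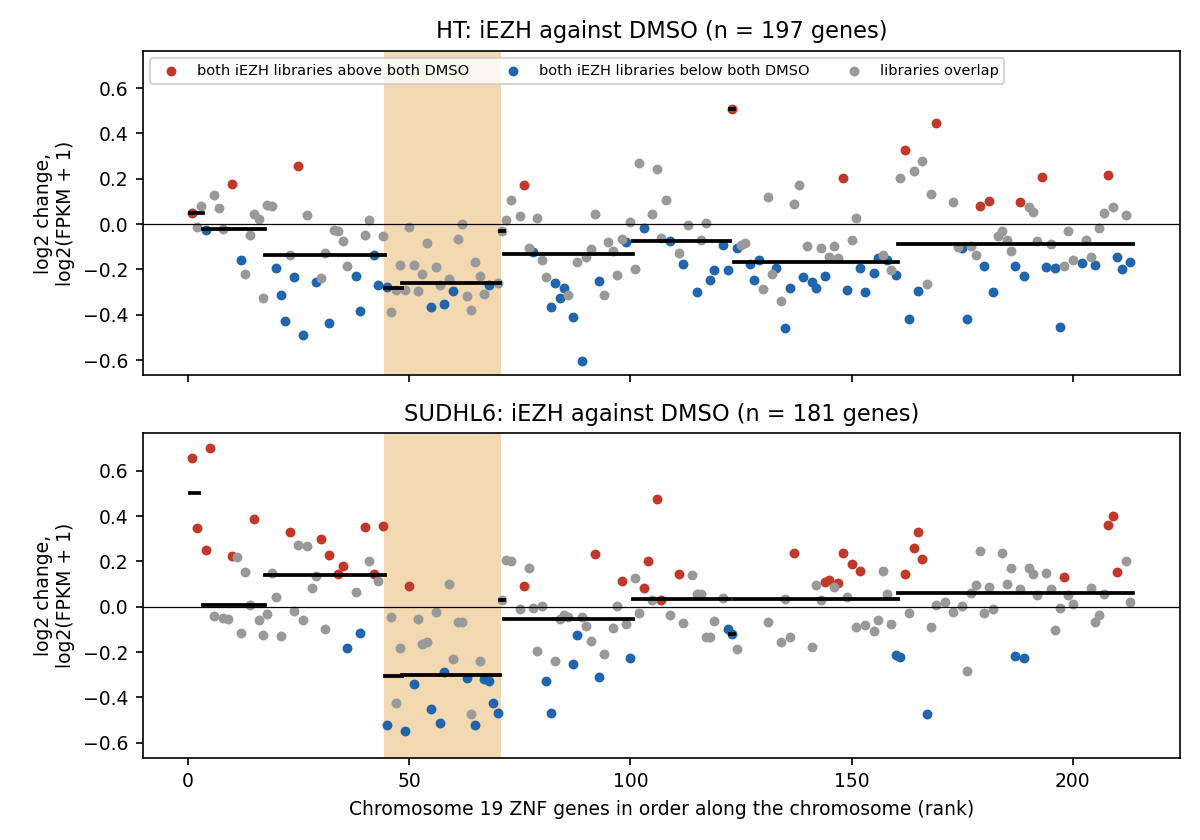
Log2 change with iEZH, on the log2(FPKM + 1) scale, of each tested chromosome 19 ZNF gene (points), ordered by rank along the chromosome, in HT (top) and SUDHL6 (bottom). Colours show whether the 2 iEZH libraries lie beyond the 2 DMSO libraries, black bars are the medians of 5 Mb bins, and the shaded band marks the genes starting between 15 and 25 Mb, where medians were -0.27 in HT and -0.30 in SUDHL6.

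A KRAB pattern was found in the longest open reading frame of 174 of the 213 members, and the median number of C2H2 fingers matched by pattern was 12, from 0 to 31. A pattern match is not a domain call. In HT the 161 tested members with the KRAB pattern had a median change of -0.16, with 132 lower and 29 higher. The 35 without it had a median of 0.018, with 17 lower and 18 higher. In SUDHL6 the medians were -0.011 for 144 members with the pattern and 0.026 for 36 without. The step between library numbers also differed along this split. In HT number 2 exceeded number 1 in both groups for 76.4% of members with the pattern and 34.3% of those without. In SUDHL6 the shares were 75% and 38.9%. Genes of chromosome 19 that are not numbered ZNF genes had medians of 0.0089 in HT (685 genes) and 0.029 in SUDHL6 (656 genes). ZNF genes on other chromosomes had medians of 0.034 and 0.060, with 199 tested in each line. These medians are descriptions and the differences between sets were not tested.

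**Figure D2:**
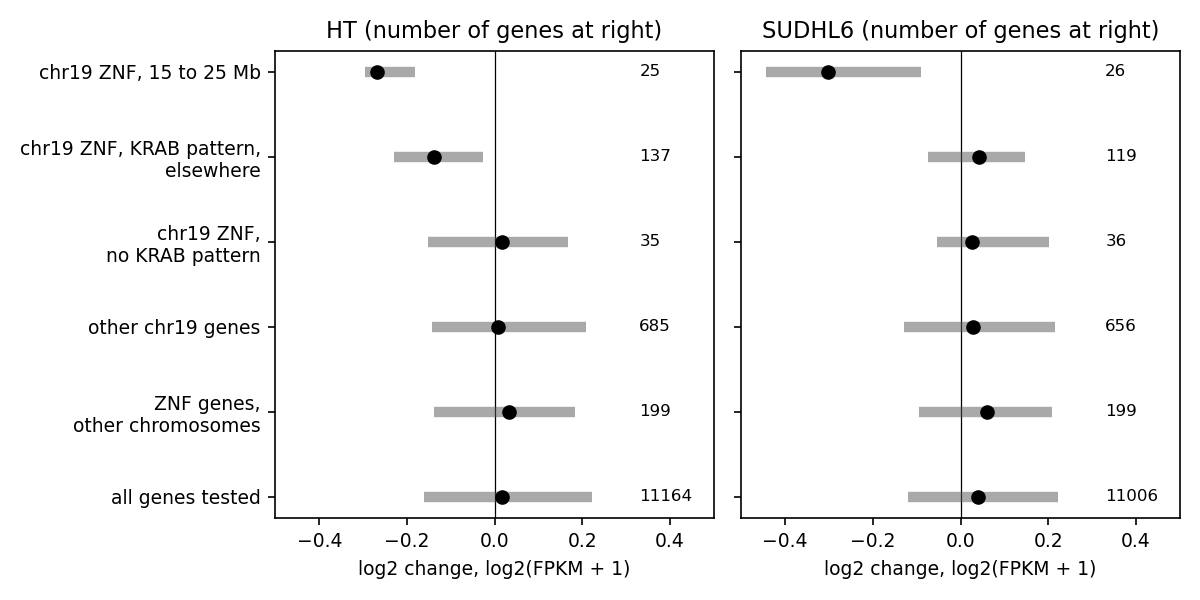
Median (point) and interquartile range (bar) of the log2 change with iEZH, on the log2(FPKM + 1) scale, for sets of genes in HT (left) and SUDHL6 (right), with the number of genes tested at the right of each panel; ZNF714, which lacks the KRAB pattern and starts between 15 and 25 Mb, stands in both of those sets. The 15 to 25 Mb set, which joins the bins of lowest median, lies at -0.27 in HT and -0.30 in SUDHL6. KRAB-pattern genes elsewhere lie at -0.14 in HT and 0.041 in SUDHL6.

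By position, the members starting between 15 and 25 Mb (hg19) were lower with iEZH in both lines. This window was not planned. It joins the 15 to 20 Mb and 20 to 25 Mb bins, which had the lowest medians in both lines. Contrasts with members outside it therefore rest on the same changes that set it apart. In the 20 to 25 Mb bin, which holds 22 members from ZNF93 to ZNF254 at chr19:20011721-24312654, 21 of 21 tested members were lower in HT, with a median change of -0.26. In SUDHL6 20 of 22 were lower, with a median of -0.30. The exceptions in SUDHL6 were ZNF682, with a log2 change of 0.089, and ZNF708, with 0.10. The 4 members of the 15 to 20 Mb bin (ZNF101, ZNF14, ZNF506 and ZNF253) were lower in both lines, with medians of -0.28 and -0.30. Over 15 to 25 Mb, both iEZH libraries lay below both DMSO libraries for 5 of 25 members in HT and 12 of 26 in SUDHL6, against 23.5% and 20.7% of all genes. The unadjusted p was under 0.05 for 0 of the 25 in HT and for 7 of the 26 in SUDHL6, all lower, 26.9% against 19.7% of all genes (22.8% in HT), and limma's smallest adjusted p was 0.303 and 0.158. Only 3 other genes of each line's table were tested in the 20 to 25 Mb bin, too few for a comparison with neighbours of other kinds there. In HT all 3 were lower (median -0.20), and in SUDHL6 1 was lower and 2 higher (median 0.19). In the 15 to 20 Mb bin, 84 other genes were tested in each line, with medians of 0.018 in HT and 0.013 in SUDHL6. Outside 15 to 25 Mb the member median was -0.11 in HT, with 125 of 172 lower, and 0.034 in SUDHL6, with 65 of 155 lower.

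The 4 libraries of each line did not carry this pattern alike. In HT the median level of the 25 members of 15 to 25 Mb was 7.03 and 8.51 FPKM with DMSO, 5.19 FPKM in iEZH library 1 and 8.33 FPKM in iEZH library 2. Library iEZH 1 was thus the low one, and iEZH 2 lay between the DMSO libraries. In SUDHL6 the median of the 26 members was 6.24 and 9.41 FPKM with DMSO and 6.27 and 6.67 FPKM with iEZH, so DMSO 2 was the high library. Without HT iEZH library 1, 14 of 21 members of the 20 to 25 Mb bin were lower and their median was -0.038. It was -0.11 without HT DMSO library 2 and -0.48 without HT iEZH library 2. Without SUDHL6 DMSO library 2, 13 of 22 were lower and their median was -0.097, and it was -0.50 without DMSO library 1. Number 2 exceeded number 1 in both groups for 24 of the 25 HT members and 23 of the 26 SUDHL6 members. Within number 1, 21 of 21 HT and 16 of 22 SUDHL6 members of the 20 to 25 Mb bin were lower with iEZH, with medians of -0.36 and -0.12. Within number 2, 17 of 21 and 21 of 22 were lower, with medians of -0.15 and -0.44.

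**Figure D3:**
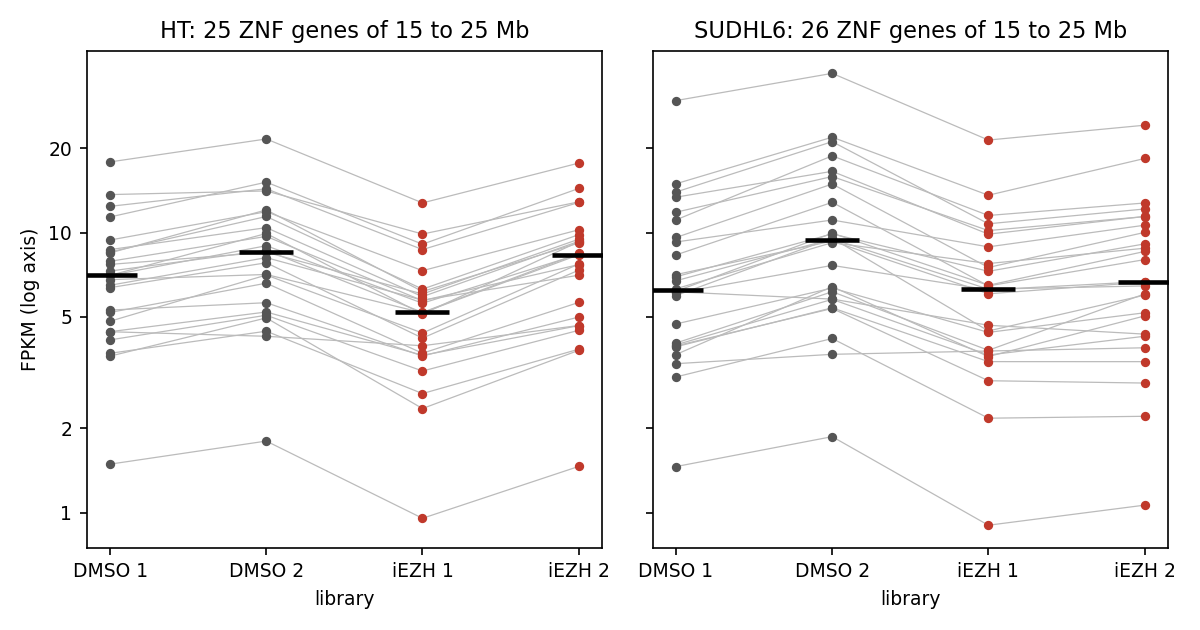
Level in each library, in FPKM on a log axis, of the chromosome 19 ZNF genes starting between 15 and 25 Mb, with each gene joined by a grey line, DMSO libraries in grey, iEZH libraries in red and the median as a black bar. In HT the medians are 7.03, 8.51, 5.19 and 8.33 FPKM from left to right, and in SUDHL6 6.24, 9.41, 6.27 and 6.67 FPKM.

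ZNF85, a KRAB zinc finger gene at chr19:21106058-21133503, measured 17.9 and 21.6 FPKM with DMSO and 12.8 and 17.7 FPKM with iEZH in HT. In SUDHL6 it measured 13.4 and 16.6 FPKM with DMSO and 9.88 and 11.4 FPKM with iEZH. Its iEZH libraries were below its DMSO libraries in both lines, with log2 changes of -0.36 (SE 0.188, limma adjusted p = 0.310) and -0.45 (SE 0.148, adjusted p = 0.189). ZNF431 and ZNF681, in the same bin, and ZNF101 were also below in both lines. ZNF93, which represses L1 retrotransposons, measured 13.97 and 21.13 FPKM with DMSO and 10.8 and 12.1 FPKM with iEZH in SUDHL6, the largest decrease there with all libraries (log2 change -0.55, SE 0.207, adjusted p = 0.235). The change was -0.27 without DMSO library 2 and -0.83 without DMSO library 1. In HT its libraries overlapped, at 8.53 and 11.4 FPKM with DMSO and 6.29 and 9.83 FPKM with iEZH. ZNF257 measured 3.05 and 4.19 FPKM with DMSO and 2.17 and 2.21 FPKM with iEZH in SUDHL6 (log2 change -0.52, SE 0.155, adjusted p = 0.158). ZNF714 was alike there, with 3.94 and 5.36 FPKM against 2.96 and 2.90 FPKM. ZNF43 had the largest decrease of the bin in HT, with 8.46 and 12.1 FPKM with DMSO and 6.16 and 9.18 FPKM with iEZH, and its libraries overlapped (log2 change -0.38, SE 0.227, adjusted p = 0.379). ZNF91, which represses SVA and L1 elements and has the most fingers matched of any member, 31, overlapped in both lines. Its log2 change was -0.23 in HT and -0.24 in SUDHL6.

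The promoters of the 20 to 25 Mb genes are alike in sequence, and 4 of them are shown beside 2 promoters from other bins to make this visible. Each stretch runs from 250 bases before to 50 after the RefSeq start (GRCh38.p14), 5′ to 3′ on the gene's strand. Capitals mark the word TCCAATCA or its reverse complement TGATTGGA, an extended CCAAT box that was picked after these promoters had been read. The positions are chr19:20923001-20923300 on the plus strand for ZNF85, chr19:19900696-19900995 on the plus strand for ZNF93, chr19:21836133-21836432 on the minus strand for ZNF43 and chr19:22052234-22052533 on the plus strand for ZNF257. ZNF568, at chr19:36916082-36916381 on the plus strand, had the largest decrease in HT. ZNF554, at chr19:2819618-2819917 on the plus strand, had the smallest p in SUDHL6, where it passed the filter only through its iEZH libraries. Neither of these windows holds the word.
ZNF85: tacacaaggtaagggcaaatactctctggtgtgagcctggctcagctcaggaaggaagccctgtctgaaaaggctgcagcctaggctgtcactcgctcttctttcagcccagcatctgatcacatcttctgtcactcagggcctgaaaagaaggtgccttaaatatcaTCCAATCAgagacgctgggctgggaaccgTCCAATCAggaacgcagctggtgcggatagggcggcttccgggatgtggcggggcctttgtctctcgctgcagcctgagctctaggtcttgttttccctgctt
ZNF93: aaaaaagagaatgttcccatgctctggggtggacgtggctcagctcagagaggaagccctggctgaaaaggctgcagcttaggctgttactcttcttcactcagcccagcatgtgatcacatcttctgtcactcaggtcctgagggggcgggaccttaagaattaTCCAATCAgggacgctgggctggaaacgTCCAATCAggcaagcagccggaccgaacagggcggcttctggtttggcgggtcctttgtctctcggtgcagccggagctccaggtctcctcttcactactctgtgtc
ZNF43: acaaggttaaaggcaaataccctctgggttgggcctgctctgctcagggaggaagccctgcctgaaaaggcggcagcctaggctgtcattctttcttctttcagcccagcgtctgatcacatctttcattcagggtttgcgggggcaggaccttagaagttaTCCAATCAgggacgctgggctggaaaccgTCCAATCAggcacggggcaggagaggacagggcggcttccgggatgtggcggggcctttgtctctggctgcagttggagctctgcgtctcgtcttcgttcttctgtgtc
ZNF257: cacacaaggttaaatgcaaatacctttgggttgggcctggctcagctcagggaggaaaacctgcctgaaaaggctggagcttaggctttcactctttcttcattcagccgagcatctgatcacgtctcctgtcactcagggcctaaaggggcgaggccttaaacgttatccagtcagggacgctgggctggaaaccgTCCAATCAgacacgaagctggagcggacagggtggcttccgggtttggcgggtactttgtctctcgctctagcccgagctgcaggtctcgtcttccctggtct
ZNF568: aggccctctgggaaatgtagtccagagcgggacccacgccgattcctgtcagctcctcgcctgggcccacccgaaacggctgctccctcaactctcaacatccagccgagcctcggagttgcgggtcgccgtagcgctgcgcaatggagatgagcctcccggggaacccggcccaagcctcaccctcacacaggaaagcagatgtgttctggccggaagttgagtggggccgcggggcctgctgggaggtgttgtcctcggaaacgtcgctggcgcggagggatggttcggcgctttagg
ZNF554: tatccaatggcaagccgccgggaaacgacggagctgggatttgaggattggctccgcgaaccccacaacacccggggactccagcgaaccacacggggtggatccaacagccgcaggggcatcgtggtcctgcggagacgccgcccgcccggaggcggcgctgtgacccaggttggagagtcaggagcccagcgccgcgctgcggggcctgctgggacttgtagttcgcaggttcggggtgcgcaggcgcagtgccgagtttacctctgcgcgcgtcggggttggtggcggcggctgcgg

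A promoter was found for 190 of the 213 members. The word was chosen from those with the highest count in the promoters of the 20 to 25 Mb bin, so its share there was fixed by the choice. It stood on either strand in 21 of 21 promoters of that bin, at least 2 times in 13 of them. It stood in 23 of the 169 other member promoters, 13.6%, and in 440 of all 27305 RefSeq promoters of that length, 1.61%. Those 23 lie in the 0 to 5 Mb (2 of 3), 10 to 15 Mb (19 of 25) and 15 to 20 Mb (2 of 2) bins. The shorter CCAAT, which the word contains, stood in 100%, 46.7% and 35.7% of these sets. CCGGAAG, the core bound by ETS factors, stood in 71.4%, 41.4% and 10.7%, and GGGCGG, a GC box, in 71.4%, 67.5% and 44.6%. The median identity between pairs of promoters was 78.5% in the 20 to 25 Mb bin and 44.3% among the other members. The closest pair was ZNF714 and ZNF431 at 91% (global alignment). The observed over expected CpG ratio had a median of 0.432 in that bin, 0.797 in the other member promoters and 0.580 over all RefSeq promoters. Over the 9521 genes of both tables together that had a promoter, it was 0.833. Of all tested members with the word, 38 of 42 were lower in HT (median -0.23) and 26 of 41 in SUDHL6 (median -0.067). Of those whose promoter lacks it, 97 of 134 were lower in HT (median -0.105) and 54 of 121 in SUDHL6 (median 0.029). In 15 to 25 Mb, 22 of 22 and 21 of 23 with the word were lower. No tested promoter of that window lacks it, so these counts repeat those of the window and cannot set the word apart from position. Outside 15 to 25 Mb, 16 of 20 were lower in HT (median -0.16), while 13 of 18 were higher in SUDHL6 (median 0.14). Genes with the word that are not members had medians of -0.021 in HT (106 genes) and -0.044 in SUDHL6 (109 genes).

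The 10 to 15 Mb bin, next to it, was lower in HT and higher in SUDHL6. In HT 20 of 25 tested members were lower, with a median of -0.14, and in SUDHL6 17 of 24 were higher, with a median of 0.14. Of the other chromosome 19 genes of this bin, 57 of 92 were also lower in HT, with a median of -0.052. In SUDHL6 47 of 91 of them were higher, with a median of 0.021. The largest HT decrease there was ZNF700 at chr19:12035899-12061578, which measured 13.5 and 15.4 FPKM with DMSO and 9.69 and 10.3 FPKM with iEZH. Both iEZH libraries were below both DMSO libraries (log2 change -0.49, SE 0.139, limma adjusted p = 0.0940). In SUDHL6 the libraries of ZNF700 overlapped, at 12.6 and 13.4 FPKM against 11.6 and 13.4 FPKM. ZNF333 was the largest change of the bin in SUDHL6, at 2.47 and 2.99 FPKM with DMSO and 3.53 and 4.02 FPKM with iEZH, and overlapped in HT. ZNF69 was higher with iEZH in both lines but overlapped in SUDHL6. In HT it measured 1.14 and 1.10 FPKM with DMSO and 1.42 and 1.66 FPKM with iEZH. ZNF878 had 1.11 FPKM in both HT DMSO libraries and 0.580 and 0.981 FPKM with iEZH.

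In the bins from 35 Mb on that hold more than 1 member, HT medians were below 0. They were -0.13 at 35 to 40 Mb (21 of 28 lower), -0.073 at 40 to 45 Mb (13 of 18 lower), -0.17 at 50 to 55 Mb (31 of 36 lower) and -0.086 at 55 to 60 Mb (32 of 49 lower). In SUDHL6 they were -0.054 (19 of 27 lower), 0.035 (7 of 18 lower), 0.034 (11 of 25 lower) and 0.059 (14 of 44 lower). Other chromosome 19 genes of these bins had HT medians of -0.017 (76 genes), 0.072 (60 genes), 0.025 (54 genes) and 0.037 (40 genes). Their SUDHL6 medians were -0.0020, 0.065, 0.059 and 0.079. In the 50 to 55 Mb bin, 34 of the tested HT members but only 4 of the 54 other genes start between 52 and 54 Mb. Those 4 were all lower in HT (median -0.10), and the 4 tested there in SUDHL6 were all higher (median 0.072). Near the start of the chromosome, 2 of 3 members at 0 to 5 Mb were higher in HT, among them ZNF57 with a log2 change of 0.079, and 2 of 2 were higher in SUDHL6. At 5 to 10 Mb the medians were -0.020 in HT and 0.0056 in SUDHL6, and ZNF846 had the largest HT change, -0.32. The 30 to 35 Mb bin holds ZNF507 alone, with log2 changes of -0.030 in HT and 0.031 in SUDHL6. The 45 to 50 Mb bin holds ZNF296 alone.

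Among single members in HT, ZNF568 had the largest decrease and the smallest adjusted p. The mouse counterpart of this KRAB gene silences a placental transcript of Igf2. At chr19:37407230-37488834 it measured 4.69 and 5.48 FPKM with DMSO and 2.73 and 3.29 FPKM with iEZH. The groups did not overlap (5.09 ± 0.559 against 3.01 ± 0.391 FPKM, SD, n = 2; log2 change -0.60, SE 0.149, limma adjusted p = 0.0695). ZNF552 at chr19:58318449-58326281 measured 6.67 and 7.07 FPKM with DMSO and 4.61 and 4.89 FPKM with iEZH, again without overlap (log2 change -0.45, SE 0.133, adjusted p = 0.101). ZNF836 measured 2.96 and 4.47 FPKM against 1.92 and 2.93 FPKM, so its groups nearly met (log2 change -0.46, SE 0.216, adjusted p = 0.269). ZNF20 measured 4.63 and 5.63 FPKM against 2.95 and 4.15 FPKM (log2 change -0.44, SE 0.178, adjusted p = 0.205), and it overlaps another row of the HT table.

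Among HT members whose iEZH libraries lay above both DMSO libraries, the 5 with the largest increases lack the KRAB pattern, apart from ZNF69. Of all 13 such members, however, 9 have the pattern and 4 lack it, out of 161 and 35 tested. ZNF296 at chr19:45574757-45579688 measured 16.8 and 13.1 FPKM with DMSO and 21.8 and 21.3 FPKM with iEZH. Its groups did not overlap (log2 change 0.51, SE 0.155, limma adjusted p = 0.111). ZNF444, a SCAN domain factor, measured 13.9 and 13.2 FPKM with DMSO and 21.9 and 16.2 FPKM with iEZH (log2 change 0.45, SE 0.171, adjusted p = 0.183). ZNF579 measured 6.35 and 5.84 FPKM against 8.89 and 6.98 FPKM (log2 change 0.33, SE 0.157, adjusted p = 0.279). ZNF497 measured 3.73 and 3.68 FPKM against 5.01 and 3.98 FPKM (log2 change 0.22, SE 0.149, adjusted p = 0.444). In each of these the iEZH libraries lay above the DMSO libraries, and in ZNF444, ZNF579 and ZNF497 most of the gap came from iEZH library 1.

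**Figure D4:**
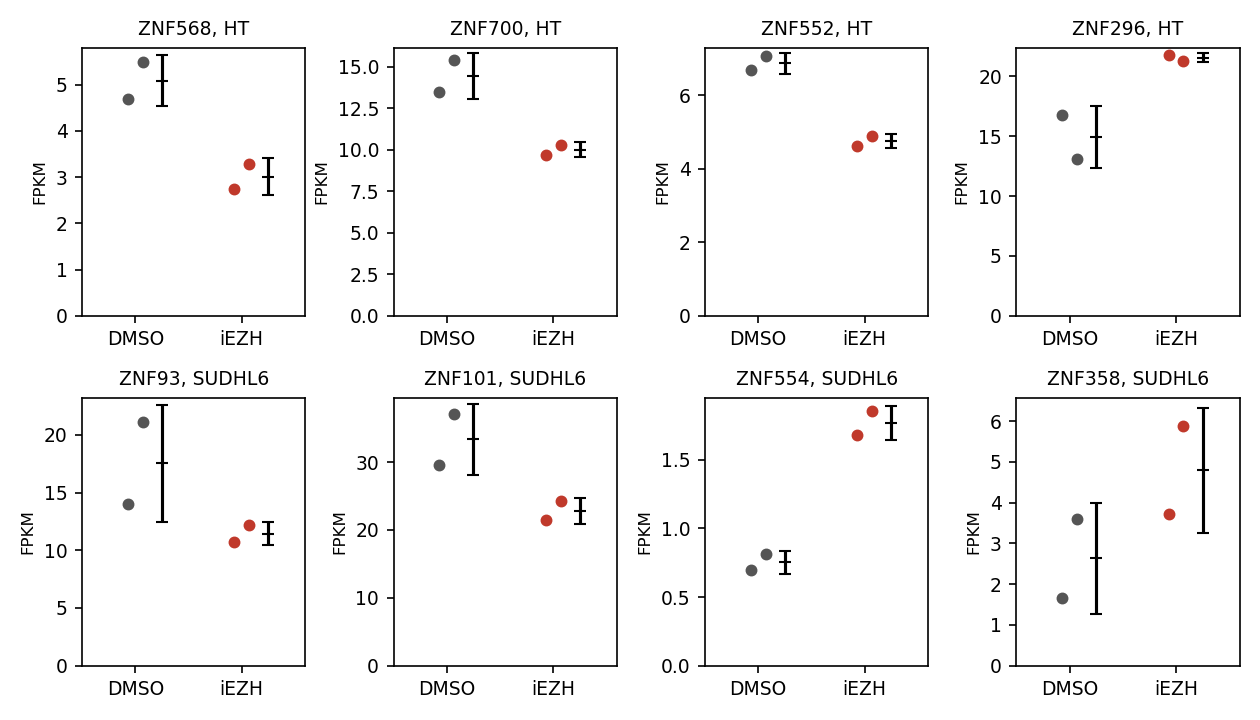
FPKM of 8 chromosome 19 ZNF genes in the line named in each title, with points for the 2 libraries of a group and bars for the mean ± SD (n = 2). The DMSO and iEZH points do not overlap in any panel, as for ZNF554 in SUDHL6, at 0.754 ± 0.0830 against 1.77 ± 0.124 FPKM. ZNF554 passed the filter there only through its iEZH libraries.

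In SUDHL6 the largest decreases outside the 20 to 25 Mb bin were ZNF101 and ZNF581. ZNF101, a KRAB gene at chr19:19779662-19791138, measured 29.6 and 37.1 FPKM with DMSO and 21.4 and 24.2 FPKM with iEZH (log2 change -0.52, SE 0.155, limma adjusted p = 0.158). In HT it measured 13.7 and 14.1 FPKM against 9.89 and 12.9 FPKM, below in both lines. ZNF581, without a KRAB pattern, at chr19:56154985-56156989, was the most abundant member of both lines. In SUDHL6 it measured 101.79 and 101.74 FPKM with DMSO and 72.3 and 73.6 FPKM with iEZH (log2 change -0.47, SE 0.121, adjusted p = 0.124). In HT its libraries overlapped, at 65.0 and 96.1 FPKM against 60.7 and 71.1 FPKM. ZNF146, made of fingers alone, came next in HT with 36.1 ± 1.14 FPKM with DMSO (SD, n = 2), and in SUDHL6 it came after ZNF428 with 37.8 ± 1.38 FPKM. Its iEZH means were 33.1 and 37.6 FPKM. ZNF580, which neighbours ZNF581, was higher in mean with iEZH in both lines, by 0.28 in HT with overlap and by 0.21 in SUDHL6 without.

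The SUDHL6 increases were led by ZNF358 and ZNF554. ZNF554 at chr19:2819871-2836733, a KRAB gene, measured 0.695 and 0.812 FPKM with DMSO and 1.68 and 1.85 FPKM with iEZH, the smallest adjusted p of any SUDHL6 member (log2 change 0.66, SE 0.126, limma adjusted p = 0.0912). In HT it measured 1.05 and 1.09 FPKM against 1.10 and 1.18 FPKM. ZNF358 at chr19:7581003-7585911, absent from the HT table, measured 1.67 and 3.59 FPKM with DMSO and 3.71 and 5.87 FPKM with iEZH (log2 change 0.70, SE 0.310, adjusted p = 0.298), so its groups were close to meeting. ZNF428 measured 52.30 and 28.97 FPKM against 56.4 and 52.7 FPKM, where DMSO library 2 was the low one (log2 change 0.48, SE 0.279, adjusted p = 0.428). ZNF837 measured 1.88 and 1.57 FPKM against 2.75 and 2.45 FPKM (log2 change 0.40, SE 0.129, adjusted p = 0.183). ZNF561 measured 5.09 and 4.94 FPKM against 6.77 and 6.96 FPKM (log2 change 0.39, SE 0.106, adjusted p = 0.138). ZNF709 measured 0.940 and 0.997 FPKM with DMSO and 1.48 and 1.55 FPKM with iEZH. ZNF575 measured 0.886 and 0.740 FPKM against 1.05 and 1.11 FPKM. ZNF554, ZNF709 and ZNF575 passed the filter only through their iEZH libraries. At these DMSO levels a decrease would have left them untested, so their p-values could only come with a rise.

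Between the lines, 173 members were tested in both. The change in SUDHL6 was above that in HT for 127 of them, with a median difference of 0.11 against 0.024 over all 10307 genes. Without HT iEZH library 1 it was above for 93, with a median of 0.024 against 0.028 over all genes. The member median was 0.039 without SUDHL6 DMSO library 1, 0.049 without SUDHL6 iEZH library 2 and 0.072 without HT DMSO library 2. It was between 0.18 and 0.25 without any one of the other 4 libraries. No member was called for the difference by limma's interaction term, where 7 genes, 0.0679%, were called. There were 7 members at an unadjusted p under 0.05, 4.05% against 11% of all genes. The 3 of smallest p were ZNF554 (SUDHL6 minus HT 0.61, SE 0.166, adjusted p = 0.234), ZNF296 (-0.63, SE 0.184, adjusted p = 0.264) and ZNF568 (0.56, SE 0.181, adjusted p = 0.310). ZNF296 in SUDHL6 measured 22.6 and 21.2 FPKM with DMSO and 20.1 FPKM in both iEZH libraries. ZNF568 in SUDHL6 was near the filter, at 1.15 and 1.23 FPKM against 1.17 and 1.08 FPKM. ZNF554 passed the SUDHL6 filter only through its iEZH libraries, so it entered this comparison because of its level with iEZH.

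Both iEZH libraries were below both DMSO libraries in both lines for 12 members, 6.94% against 10.4% of all genes. These were ZNF101, ZNF180, ZNF331, ZNF345, ZNF382, ZNF431, ZNF443, ZNF530, ZNF550, ZNF569, ZNF681 and ZNF85. They were above in both lines for 6 members, 3.47% against 13.7%, namely ZNF320, ZNF497, ZNF554, ZNF559, ZNF579 and ZNF792. The mean was lower in both lines for 73 members, 42.2% against 29.1% of all genes. It was lower in HT and higher in SUDHL6 for 58, 33.5% against 19.9%. It was higher in both for 28, 16.2% against 35.8%, and higher in HT and lower in SUDHL6 for 14, 8.09% against 15.3%.

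**Figure D5:**
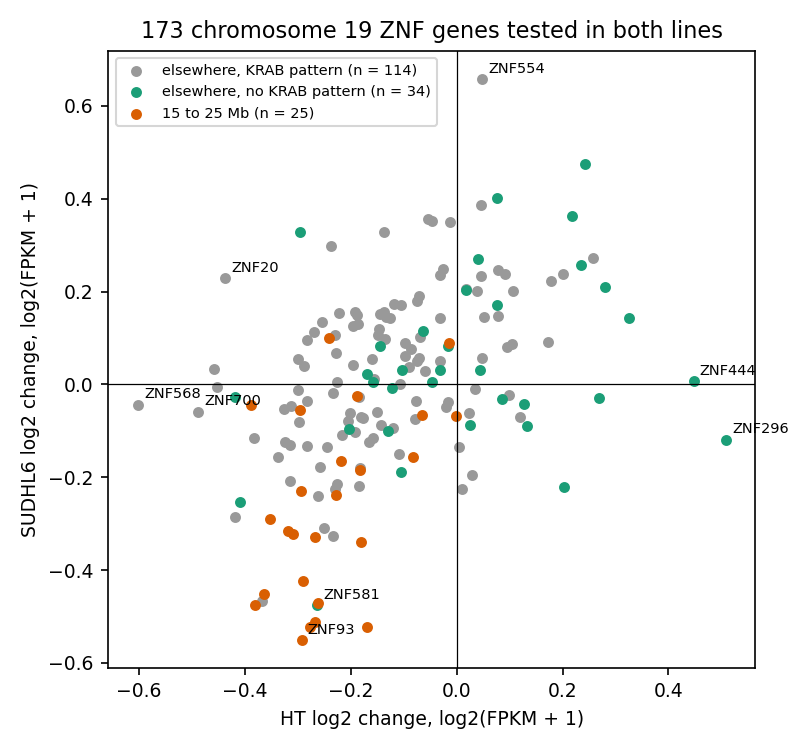
Log2 change with iEZH, on the log2(FPKM + 1) scale, in HT (horizontal) and SUDHL6 (vertical) of the 173 chromosome 19 ZNF genes tested in both lines, coloured by position and KRAB pattern. Most genes of 15 to 25 Mb are lower in both lines, and ZNF554, ZNF296 and ZNF568 lie far from the diagonal.

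Members with a described function were lower in most cases. Of the 10 such genes measured in each line, 10 were lower in HT (median -0.20, 0 called) and 8 in SUDHL6 (median -0.14, 0 called). Among all tested members 76.1% were lower in HT and 49.2% in SUDHL6. Of all genes tested, 47.4% and 43.3% were lower, and 5.51% and 0.0182% were called. The 10 include ZNF91 and ZNF93, given with the 20 to 25 Mb bin, and ZNF675 and ZNF253, which also start between 15 and 25 Mb. ZNF274, which brings SETDB1 to the coding ends of other ZNF genes, measured 14.88 and 14.86 FPKM with DMSO and 11.7 and 14.4 FPKM with iEZH in HT. In SUDHL6 it overlapped, at 12.8 and 14.9 FPKM against 12.3 and 13.9 FPKM. ZNF224, a repressor of the aldolase A gene, measured 7.33 and 8.85 FPKM with DMSO and 6.04 and 6.69 FPKM with iEZH in HT, without overlap, and its log2 change in SUDHL6 was 0.055. ZNF331, an imprinted KRAB gene, measured 5.35 and 5.46 FPKM against 4.43 and 4.52 FPKM in HT and 5.72 and 6.12 FPKM against 5.10 and 4.82 FPKM in SUDHL6. Its libraries did not overlap in either line (limma adjusted p = 0.362 and 0.361). ZNF420, a p53 regulator, ZNF675, a TRAF6 pathway regulator, ZNF253 and ZNF260 overlapped in HT, with log2 changes from -0.31 (ZNF675) to -0.14 (ZNF420).

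Members known for promoter DNA methylation in tumours were mostly lower in HT. There 9 were in the table and 7 were tested, with 6 lower and 1 higher (median -0.23, 0 called). In SUDHL6 8 were in the table and 6 were tested, with 4 lower and 2 higher (median -0.13, 0 called). Among all tested members 76.1% were lower in HT and 49.2% in SUDHL6. Of all genes tested, 47.4% and 43.3% were lower, and 5.51% and 0.0182% were called. ZNF382, a candidate tumour suppressor, measured 6.70 and 6.63 FPKM with DMSO and 4.03 and 6.02 FPKM with iEZH in HT. In SUDHL6 it measured 5.30 and 5.95 FPKM against 3.91 and 3.66 FPKM, lower in both lines without overlap (log2 changes -0.37 and -0.47, limma adjusted p = 0.296 and 0.122). ZNF154 was the higher one in HT, at 1.96 and 2.32 FPKM against 2.63 and 2.61 FPKM, and stayed below the filter in SUDHL6. ZNF529 had log2 changes of -0.23 and -0.33, ZNF671 of -0.19 and 0.15, and ZNF132, in the HT table alone, of -0.20. ZNF177 was below the filter in HT and had 0.22 in SUDHL6. ZNF677 in HT and ZNF582 in SUDHL6 stayed below the filter at 0.739 and 0.922 FPKM at most.

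All genes of a chosen list for the KRAB corepressor pathway were measured, 18 of 18 in each line. None was called, where 5.51% of genes in HT and 0.0182% in SUDHL6 were. In HT 12 were lower and 6 higher (median -0.11), and in SUDHL6 9 were lower and 9 higher (median 0.0014). TRIM28, which binds the KRAB box, measured 261 and 220 FPKM with DMSO and 303 and 229 FPKM with iEZH in HT, and 217 and 187 against 212 and 191 FPKM in SUDHL6, overlapping in both lines. SETDB1 measured 24.2 and 27.1 FPKM with DMSO and 22.7 and 21.7 FPKM with iEZH in HT, lower without overlap, and had a log2 change of -0.0059 in SUDHL6. DNMT1, the maintenance DNA methyltransferase, had log2 changes of -0.50 (SE 0.124, limma adjusted p = 0.0685) in HT and -0.59 (SE 0.138, adjusted p = 0.112) in SUDHL6, below in both lines. CHD3 was above in both lines without overlap, with log2 changes of 0.49 (limma adjusted p = 0.0910) in HT and 0.26 (adjusted p = 0.374) in SUDHL6. The 4 PRC2 genes EZH2, EZH1, EED and SUZ12 had medians of -0.22 in HT and -0.13 in SUDHL6, with none called.

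The 18 members in the HT table alone reached at most 11.6 FPKM, with ZNF558 the highest at 9.04 and 11.1 FPKM with DMSO and 9.62 and 11.6 FPKM with iEZH. ZNF256 measured 9.04 and 8.70 FPKM against 7.37 and 8.18 FPKM. Of the 5 in the SUDHL6 table alone, ZNF358 was the highest, and ZNF221 and ZNF582 did not reach 1 FPKM in any library. A gene that is in 1 table only is not among the detectable genes of the other, so no level is given for it there.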

How the data were processed

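RNA-seq reads were processed with TopHat 1.4.1 and Cufflinks (version not stated) on hg19, per the submitters' processing notes. The authors deposited 1 table per line of FPKM for genes rated detectable, with a p-value (Tukey test), its FDR and a fold as ratio of means, per the file headers. Members and gene lists were chosen with earlier results of these data known. Library strand, annotation and normalization options are not given in the sources used here.

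Values were used as deposited. Genes spanning 300 bp or more that reached 1 FPKM in 2 or more libraries of a line were fitted on log2(FPKM + 1), which understates changes of low genes, with limma 3.58.1 (R 4.3.3, eBayes with trend). Shorter genes were left out because their FPKM rests on length correction, a choice also made with earlier results known. Each line was fitted alone, without a replicate block, and the difference between lines was the interaction term over all 8 libraries. P-values were two-sided, corrected across every gene tested (Benjamini-Hochberg), with calls at 0.05. The fits were checked on simulated data. Members were binned by start in 5 Mb steps.

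Fingers and KRAB boxes were matched by pattern in the longest open reading frame among each gene's protein-coding GENCODE transcripts, since no protein table was used. Where a gene had no such transcript, those of any type were taken. Promoters are RefSeq's (GRCh38.p14) and were matched by symbol. Named members are, per line, the 5 largest rises and falls without overlap, the 3 highest with DMSO, those crossing 1 FPKM, the largest per bin, the 3 of smallest p for the difference and the listed genes; further members are named after their values were seen. Alternatives are in the closing section.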

Additional observations from a re-analysis of the deposited data

Results flagged for a closer look

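For 9 members the 2 iEZH libraries lay beyond the 2 DMSO libraries in opposite directions in HT and SUDHL6, 5.20% of the 173 tested in both against 5.95% of all genes. In all 9, limma's interaction test of the difference did not pass, with adjusted p from 0.264 (ZNF296) to 0.892 (ZNF526). ZNF296 was higher in HT and lower in SUDHL6, a SUDHL6 minus HT difference of -0.63 on the log2(FPKM + 1) scale. The other 8 were lower in HT and higher in SUDHL6. The difference was 0.67 for ZNF20 and 0.62 for ZNF784, which measured 8.17 and 7.83 FPKM with DMSO and 7.35 and 5.43 FPKM with iEZH in HT, and 4.75 and 3.89 FPKM against 5.34 and 5.99 FPKM in SUDHL6. It was 0.35 for ZNF347, 0.34 for ZNF611, 0.29 for ZNF584, 0.28 for ZNF490, 0.27 for ZNF557 and 0.099 for ZNF526. ZNF347 and ZNF611 belong to the 50 to 55 Mb bin. ZNF526 and ZNF557 changed by no more than -0.016 and -0.026 in HT, so their place among the 9 rests on close values of libraries.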

How the results depend on the processing

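In HT the count of members called, 0, stayed at 0 under every alternative run except 4. It was 1 under quantile normalization and 1 with both lines in 1 fit (ZNF568 in each), 31 with the replicate block, and 0 to 7 when libraries were left out in turn, 7 of them without iEZH library 2 (ZNF100, ZNF20, ZNF345, ZNF382, ZNF444, ZNF506 and ZNF568). In SUDHL6 it was 1 with both lines in 1 fit (ZNF554), 33 with the replicate block and 0 to 2 when libraries were left out, with ZNF428 and ZNF93 called without DMSO library 1 and ZNF358 without iEZH library 1. For the difference between lines it was 6 with the replicate block and 0 otherwise. Under quantile normalization the median change of members was -0.25 in HT and -0.12 in SUDHL6, and ZNF575 in SUDHL6 turned to -0.0012. When libraries were left out in turn, the HT median of members ranged from -0.24 to -0.037 and that of the 20 to 25 Mb bin from -0.48 to -0.038. In SUDHL6 the ranges were -0.055 to 0.077 and -0.50 to -0.097. A lone library left in a group was assumed to vary like the others. The cause of these shifts was not tested.

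The replicate block used the number in the titles, whose meaning the labels do not state. Deviations of same-numbered libraries from their group means correlated at 0.618 in HT and 0.729 in SUDHL6, over 1 pairing per line. With the block, 4 of 197 tested members were called up and 27 down in HT, and 15 of 181 up and 18 down in SUDHL6. For the difference, 5 of 173 were called up and 1 down (ZNF20, ZNF296, ZNF554, ZNF568, ZNF700 and ZNF784). Among all genes, 3743 of 11164 were called in HT, 3780 of 11006 in SUDHL6 and 1269 of 10307 for the difference. The share of members called was below that of all genes in each. In the 20 to 25 Mb bin 6 of 21 HT and 12 of 22 SUDHL6 members were called, all down. That share was below the share of all genes in HT and above it in SUDHL6. Within number 1, 21 of 21 HT and 16 of 22 SUDHL6 members of that bin were lower with iEZH, and within number 2, 17 of 21 and 21 of 22, a comparison chosen after seeing the data.

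The number of all genes called, 615 in HT and 2 in SUDHL6, was 69 and 30 with genes under 300 bp kept in, 332 and 0 without the filter on low values, 304 and 2 under quantile normalization 754 and 458 with both lines in 1 fit, and 467 to 1163 and 200 to 467 when libraries were left out. SUDHL6 had 0 with eBayes without trend. The count for the difference, 7, was 11 with short genes kept in or without the filter, 4 under median-ratio rescaling, eBayes without trend or robust eBayes, 1 under quantile normalization, 0 to 2 when libraries were left out and 1269 with the block.

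With 2 libraries per group and no counts, precision rests on the spread of libraries. Reads shared between similar ZNF genes were not measured.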

Other observations

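Members with more AT-rich transcripts were lower with iEZH. GC content was taken from the transcript with the longest open reading frame for ZNF genes and from the longest coding transcript for other genes. Comparisons with all genes therefore set unlike transcript choices side by side. Across tested members, the log2 change and this GC content had a Spearman correlation of 0.37 in HT (196 genes) and 0.36 in SUDHL6 (180 genes), against 0.15 and 0.12 over all genes. Outside 15 to 25 Mb it was 0.33 and 0.21. The median GC content was 37.4% for members of 15 to 25 Mb and 42.4% for all members, against 49.0% for all genes. The correlation with the number of fingers was -0.22 in HT and -0.16 in SUDHL6. These are correlations across genes of the same libraries, which are not independent replicates, and the part of GC content in the changes was not tested.

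For members starting within 100 kb of each other, the median absolute difference in log2 change was 0.12 for 144 neighbouring pairs in HT, against 0.17 for all pairs, and 0.17 for 126 pairs in SUDHL6, against 0.19. Pearson's r between the changes of such neighbours was 0.067 in HT and 0.30 in SUDHL6, a description over pairs that share libraries and genes.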
